A study of Homo sapiens with 24 samples.

Results

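The data described here ask whether OVCAR8 cells that had become resistant to neratinib still changed their mRNA levels when the drug was given again. The comparison is an interaction, a difference of differences: the change with neratinib in the resistant cells minus the change with neratinib in the parental cells. It rests on 12 of the 24 libraries in the series, all those made from OVCAR8, and the remaining 12 are from the bladder carcinoma line 5637. Neratinib is an irreversible inhibitor of the ERBB receptor tyrosine kinases, and OVCAR8 is a human ovarian carcinoma line.

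The 4 groups had 3 libraries each. Neratinib-resistant OVCAR8 cells (NR) were given 1 μM neratinib for 24 h or left untreated, and parental OVCAR8 cells were likewise given 1 μM neratinib for 24 h or left untreated. All NR cells, treated or not, had spent 1 week without the drug before they were plated, so untreated NR cells were cells off the drug for at least that time. How the NR line was selected, and whether it is a clone or a pool, is not given in the sources used here. The 3 libraries of a group came from 3 dishes of 10 cm. Nothing says that these were separate cultures, so every p-value below measures only the spread between these dishes, which may be technical.

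ERBB receptors signal through the RAS, RAF, MEK and ERK kinases and through PI3 kinase, AKT and mTORC1. ERK activity maintains immediate early genes and their feedback inhibitors and helps cells enter S phase, while AKT keeps FOXO transcription factors out of the nucleus and mTORC1 supports sterol and nucleotide synthesis. Separately, stress that phosphorylates the initiation factor eIF2 raises translation of ATF4, a transcription factor that switches on amino acid synthesis and transport genes.

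The OVCAR8 libraries held 23.8 to 48.5 M counted reads (M stands for 1e6). Parental control replicate 2 stood apart. Genes longer than 8 kb took 14.1% of its counts, against 20.4% to 21.2% in the other 11 libraries, and genes shorter than 1 kb took 5.82%, against 4.06% to 4.74%. It also lay at 91.9 on the second principal component, which carried 28.2% of the variance, while the other parental controls lay at 10.5 and 11.2. Counts of calls in the gene lists are therefore given with all 12 libraries and with 11, without that library, and the values of single genes come from the 12-library fit unless 11 is named. The biological coefficient of variation, which is the fitted spread between replicates, was 13% with 12 libraries and 4.37% with 11. Of 8 Müllerian and ovarian carcinoma markers, 4 reached 1 CPM, which is 1 count per 1e6 in the library, namely PAX8, MSLN, FOLR1 and WT1. EMX2, SOX17, MECOM and MUC16 were at or near 0, with 0 to 10 reads in a library. The 8 markers summed to 277 to 306 CPM in NR cells with neratinib and 295 to 336 in NR cells without, against 505 to 534 in parental cells with neratinib and 433 to 549 in parental cells without. Of 11 urothelial markers, GATA3 and PPARG alone reached 1 CPM. OVCAR8 libraries also held 0 to 63 reads of KRT19 and 0 to 29 of KRT5, epithelial keratin genes with 31578 to 156283 and 18724 to 175882 reads in the 5637 libraries. The highest of these OVCAR8 counts were in NR neratinib replicates 1 and 3.

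Fewer genes were called after neratinib in NR than in parental cells, and for part of them the difference itself was called. The interaction passed an adjusted p of 0.05 in edgeR's quasi-likelihood test for 1595 of 18072 genes, which is 8.83% of those tested. It was higher for 835 genes (4.62%) and lower for 760 (4.21%). Neratinib alone changed 251 genes in NR cells (1.39%), of which 116 rose (0.642%) and 135 fell (0.747%), against 5868 in parental cells (32.5%), of which 2922 rose and 2946 fell. The interaction and the parental response share the 6 parental libraries, whereas the NR and the parental response share none. In bulk RNA, fewer cells of a kind and less RNA per cell cannot be told apart.

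Without parental control replicate 2 the interaction was called for 6076 of 18537 genes (32.8%), 3157 higher (17.0%) and 2919 lower (15.7%). All 1595 genes of the 12-library fit were called there with the same sign. The NR response then had 1740 rises (9.39%) and 2210 falls (11.9%), and the parental response 4506 rises and 4611 falls (49.2% in all). Leaving out parental control 1 or 3 instead gave 896 to 1123 higher and 797 to 822 lower interaction calls, and leaving out any of the other 9 libraries gave 409 to 497 higher and 375 to 497 lower. The NR response had 21 to 63 rises and 22 to 77 falls when any of those 9 libraries was left out, and the parental response 2169 to 2786 rises and 2038 to 2711 falls. Of the called interactions 52.4% were higher, but 40.5% were higher when libraries were scaled by their totals alone, and for the parental response these shares were 49.8% and 62.6%. That scaling moved the median parental response of all genes to 0.105. The median over all genes tested was near 0 in every contrast, at 0.0044 for the NR response, 0.0105 for the parental response and -0.019 for the interaction on the log2 scale.

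Genes were then sorted by which of the 3 tests they passed. A response was lost where the parental response and the interaction were called and the NR response was not. It was weakened or strengthened where all 3 were called, with both responses in the same direction and the NR response smaller or larger. It was reversed where all 3 were called and the directions differed, gained where the NR response and the interaction were called but the parental response was not, and kept where both responses were called in the same direction and the interaction was not. The 12-library fit gave 1462 lost responses, 671 rises and 791 falls. It gave 80 weakened, 2 reversed, 0 strengthened, 14 gained and 123 kept. Among lost genes the median absolute log2 fold change was 0.115 in NR cells and 0.711 in parental cells, and among weakened genes it was 0.619 and 1.52 in the same order of cells. The sorting picks small NR changes for the lost class and requires the smaller NR change in the weakened class. These medians are therefore a description of the classes.

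**Figure D1:**
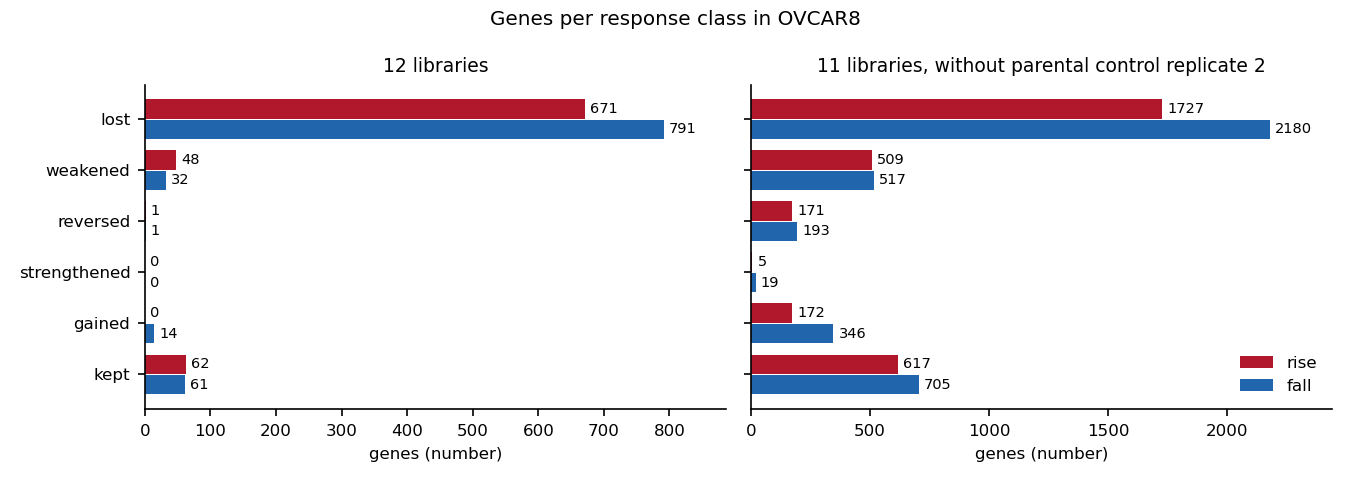
Number of genes (horizontal axis) in each response class, in the fit of 12 libraries (left) and of 11 libraries without parental control replicate 2 (right). Red bars are rises and blue bars falls with neratinib, taken from the parental response for lost and weakened genes and from the NR response for the other classes. Lost responses are the most numerous in both fits, with 671 rises and 791 falls in the left panel.

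The boundaries between classes moved with the spread. With 11 libraries there were 3907 lost, 1026 weakened, 364 reversed, 24 strengthened, 518 gained and 1322 kept responses. Of the 1462 genes lost with 12 libraries, 1061 were lost again, 287 were weakened and 111 were reversed. All 80 weakened and both reversed genes kept their class, as did 11 of the 14 gained and 84 of the 123 kept. Leaving out any of the 9 libraries that were not parental controls left 726 to 942 lost, 19 to 51 weakened, 0 reversed, 3 to 6 gained and 20 to 74 kept responses. Leaving out parental control 1 or 3 left 1570 to 1787 lost, 0 to 4 reversed and 14 to 16 gained. A missed call in NR cells does not show that a gene did not respond.

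Genes with a large parental response were also counted by themselves. Of 758 genes that rose at least 2-fold in parental cells, 58 were called higher in NR cells, 18 of them at least 2-fold, and the interaction was called for 296. Their median log2 fold change was 0.327 in NR cells and 1.35 in parental cells. Of 331 genes that fell at least 2-fold, 33 were called lower in NR cells and 5 of these by at least 2-fold, with medians of -0.357 in NR and -1.28 in parental cells. With 11 libraries 226 of 884 such rises were called higher in NR cells (42 at least 2-fold) and 8 lower, and 110 of 323 such falls were called lower (19 at least 2-fold). The interaction was then called for 504 of the rises and 149 of the falls, against 296 and 124 with 12 libraries. The medians moved less, to 0.327 in NR and 1.40 in parental cells for the rises and -0.436 in NR and -1.36 in parental cells for the falls. These genes were picked for a large parental change, so the smaller NR median is a description.

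**Figure D2:**
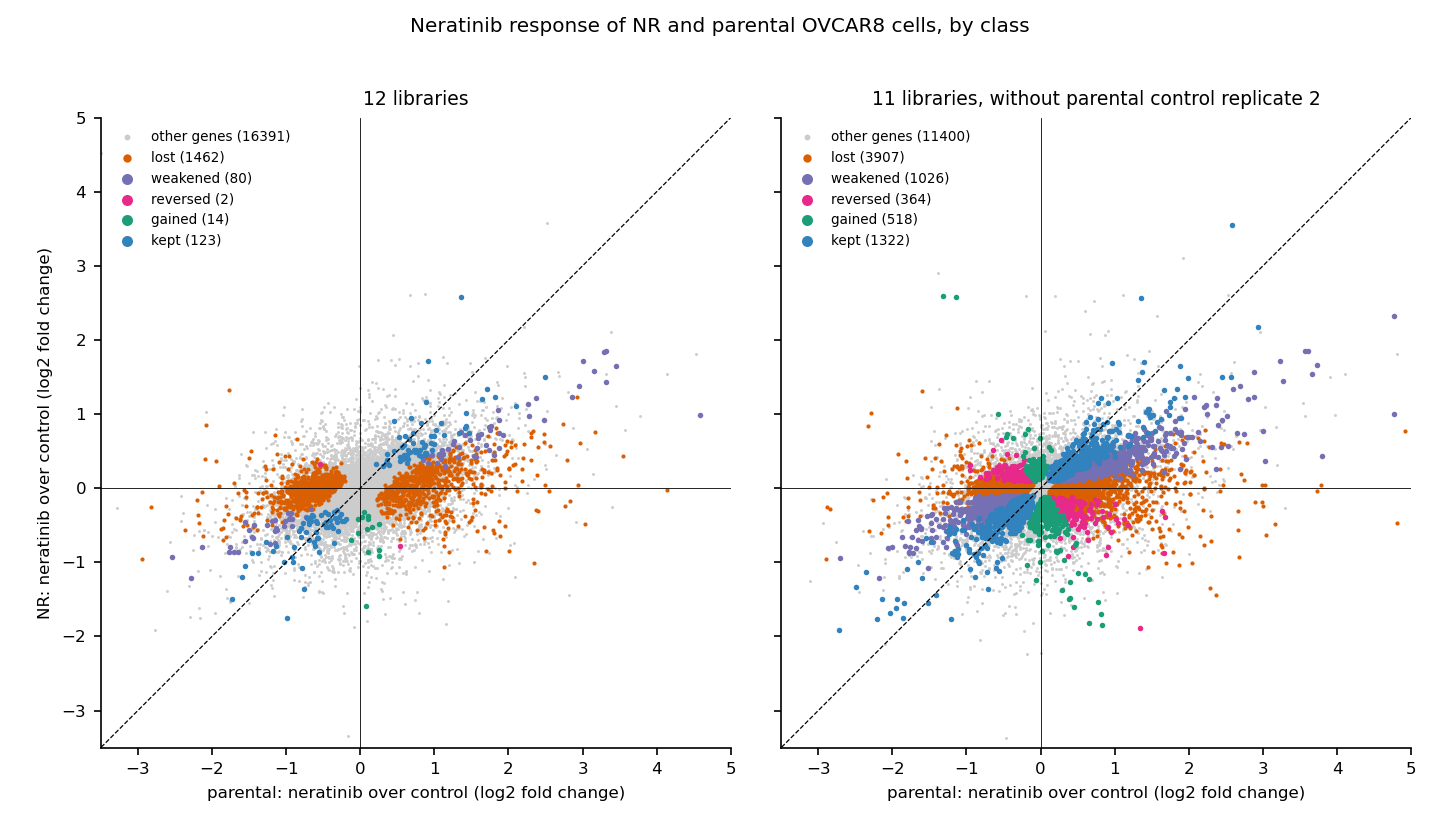
Log2 fold change with neratinib in NR cells (vertical) against parental cells (horizontal), 1 point per gene, for 12 libraries (left) and 11 libraries (right). Colours mark the classes named in the key, grey points are all other genes, and the dashed line marks equal responses. Coloured points of the lost class lie in a flat band around 0 in NR cells, which follows from how that class was defined. The axes run between -3.5 and 5, and 9 genes in the left panel and 11 in the right lie outside them.

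Genes of amino acid synthesis, amino acid transport and the stress response under ATF4 rose in parental cells and rose by less in NR cells. Of 37 members tested, 16 rose and 0 fell in NR cells, against 34 and 1 in parental cells. With 11 libraries 31 of 38 rose and 1 fell in NR cells, against 37 and 1 in parental cells. The interaction was called lower for 27 and higher for 0. It was lower for 34 with 11 libraries, and for 25 or 26 with any other library left out. The median log2 fold change was 0.42 in NR and 1.45 in parental cells, with a median interaction of -0.93. By class, 13 members were lost, 14 weakened and 2 kept with 12 libraries, and 3 were lost, 31 weakened and 1 kept with 11.

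INHBE (chr12:57846106-57853063 in hg19), which encodes the activin beta E subunit, had 1.91, 1.95 and 2.31 CPM in NR cells with neratinib and 1.05, 1.26 and 0.821 CPM in NR cells without. Parental cells had 36.7, 36.9 and 34.1 CPM with neratinib and 1.1, 1.65 and 1.44 CPM without. Untreated cells of both kinds overlapped, and treated parental cells lay far above all others. The interaction was -3.59 on the log2 scale (SE 0.26, edgeR adjusted p = 5.7e-05), and INHBE was weakened rather than lost because the NR rise of 0.99 was also called (adjusted p = 0.029).

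DDIT4 (chr10:74033678-74035794), an inhibitor of mTORC1, had 7.38, 5.46 and 6.55 CPM in treated and 4.71, 5.28 and 4.18 CPM in untreated NR cells. In parental cells it had 49.6, 49.7 and 45.5 CPM with the drug and 2.26, 4.9 and 4.43 CPM without. The NR change of 0.44 missed the threshold (adjusted p = 0.46), the parental rise was 3.54, and the interaction was -3.10 (SE 0.33, adjusted p = 0.00043). With 11 libraries the small NR rise was called and DDIT4 counted as weakened. TRIB3, a pseudokinase that restrains AKT and ATF4, had an interaction of -1.92 (SE 0.17, adjusted p = 0.00014). SESN2, a leucine sensor upstream of mTORC1, had -1.46 (SE 0.12, adjusted p = 6.5e-05).

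Several transporters and synthetic enzymes rose in both lines. SLC7A11, the cystine transporter, had 66.4, 70.3 and 62.9 CPM in treated NR cells and 22.2, 21.1 and 22.8 CPM in untreated ones, against 234, 226 and 220 CPM in treated parental cells and 30.8, 13.2 and 28.6 CPM in untreated ones. Treated and untreated libraries did not overlap in either line. SLC7A11 rose by 1.58 in NR and 3.15 in parental cells on the log2 scale, and the interaction was -1.57 (SE 0.28, adjusted p = 0.0059). SLC6A9, a glycine transporter, rose by 1.44 in NR and 3.32 in parental cells. ASNS, asparagine synthetase, rose by 1.72 in NR and 3.0 in parental cells, and CHAC1, which degrades glutathione, by 1.84 and 3.29 in those cells. PHGDH, the first enzyme of serine synthesis, was kept, at 1.24 in NR and 1.82 in parental cells with an interaction of -0.59 (adjusted p = 0.094), and was weakened with 11 libraries. ATF4 mRNA itself had log2 fold changes of 0.58 in NR cells, which missed the threshold, and 0.63 in parental cells. Its interaction was -0.05 (adjusted p = 0.92) with 12 libraries and -0.35 (adjusted p = 1.9e-05) with 11. Of 19 aminoacyl-tRNA synthetases, which ATF4 also induces in part, 7 rose and 0 fell in NR cells, against 13 and 5 in parental cells. Their interaction was lower for 4 and higher for 0. With 11 libraries 12 rose and 1 fell in NR cells, against 13 and 5 in parental cells, and the interaction was lower for 13 and higher for 3. WARS, for tryptophan, had 145, 140 and 136 CPM in treated and 98.9, 95.3 and 97.3 CPM in untreated NR cells, against 362, 365 and 366 CPM in treated and 104, 90.2 and 113 CPM in untreated parental cells, an interaction of -1.22 (SE 0.09, adjusted p = 5.7e-05).

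Promoter sequence was looked at for some of the lists that moved together, since a shared motif can be shown beside the shared direction. Lists and motifs were both chosen from general knowledge, so a share above background describes the list and not its response. Shares given for all tested genes are over the 10621 of them with a matched promoter. The windows come from RefSeq promoters on GRCh38.p14, each read on the gene's strand from 250 bases before the start up to the start, and matched by symbol. The composite site bound by ATF4 was searched as TGATGNAA on both strands. It occurred in 3 of the 29 amino acid gene promoters that were matched (10.3%), against 1.48% of promoters of all tested genes and 3.19% of all 27305 promoters in the table. The matched stretches are shown in capitals with up to 30 bases on either side, CHAC1 at chr15:40953232-40953299 (plus strand), ASNS at chr7:97872439-97872506 (minus strand) and ATF3 at chr1:212565186-212565253 (plus strand).
CHAC1: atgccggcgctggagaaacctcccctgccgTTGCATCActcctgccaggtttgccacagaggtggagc
ASNS: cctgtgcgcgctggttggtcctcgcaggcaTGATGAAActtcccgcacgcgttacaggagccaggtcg
ATF3: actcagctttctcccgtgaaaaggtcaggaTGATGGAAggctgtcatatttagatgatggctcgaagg

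The match lay 209 bases before the start in CHAC1, where it read on the opposite strand, 68 in ASNS and 191 in ATF3. ATF3, a stress-induced repressor, had an interaction of -0.76 (adjusted p = 0.032) that missed the threshold in 8 of the 12 fits with 1 library left out, whereas those of CHAC1 (-1.46) and ASNS (-1.28) were called in all 12. A match describes letters in a window and shows no binding.

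**Figure D3:**
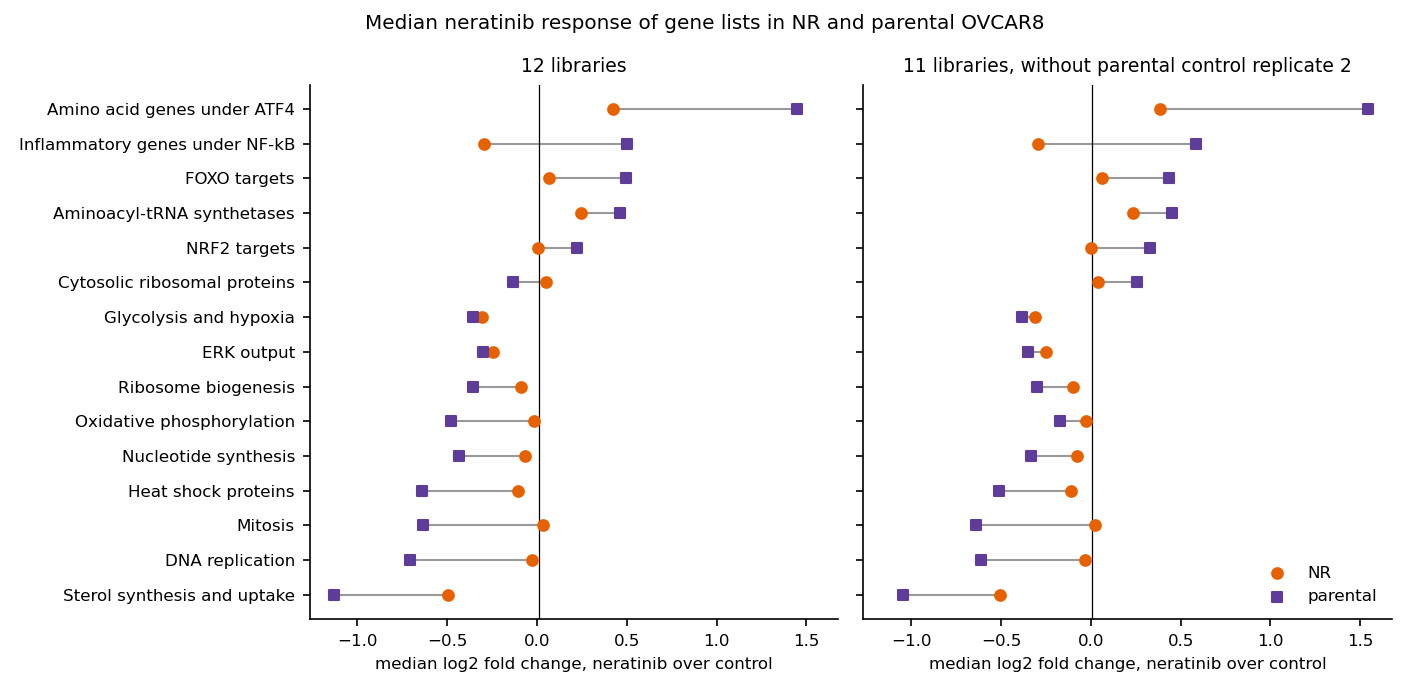
Median log2 fold change with neratinib (horizontal axis) of the members of 15 gene lists in NR cells (orange circles) and parental cells (purple squares), with 12 libraries (left) and 11 libraries (right). The vertical line is the median of all genes tested in the parental response. The ATF4 list lies at 0.42 in NR and 1.45 in parental cells in the left panel, and the cytosolic ribosomal proteins change sides between the panels in parental cells.

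Cholesterol synthesis and uptake genes, which SREBP2 drives, fell in parental cells and fell less in NR cells. Of 23 tested, 0 rose and 8 fell in NR cells, against 1 and 19 in parental cells. With 11 libraries 1 rose and 16 fell in NR cells, against 1 and 20 in parental cells, and 3 members were lost and 15 weakened where 12 libraries gave 8 of each. The interaction was higher for 16 and lower for 0, and 17 were higher and 1 lower with 11 libraries, while any other library left out gave 13 to 16 higher. The medians were -0.50 in NR and -1.13 in parental cells.

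ACAT2, which makes acetoacetyl-CoA for the pathway, was lost. It had 55.1, 51.5 and 52.5 CPM in treated and 54.2, 53.7 and 54.3 CPM in untreated NR cells, against 24.2, 26.3 and 26.1 CPM in treated and 56.8, 83.7 and 66 CPM in untreated parental cells. The NR libraries overlapped and the parental ones did not, and the interaction was 1.5 (SE 0.20, adjusted p = 0.0015). IDI1, the isopentenyl diphosphate isomerase, had an interaction of 1.33 (SE 0.19, adjusted p = 0.0022). INSIG1 encodes a retention factor of SREBP, and its log2 fold changes were -1.21 in NR and -2.28 in parental cells. Those of HMGCS1, an early synthetic enzyme, were -0.85 in NR and -1.71 in parental cells. SREBF2, the gene of SREBP2, had an interaction of -0.10 (adjusted p = 0.66). A sterol regulatory element, searched as TCACNCCAC on both strands, occurred in 1 of 16 matched promoters (6.25%), against 0.857% of those of all tested genes. Among 14 genes of fatty acid synthesis, 3 had a higher interaction and 0 a lower one with 12 libraries, beside 4.62% and 4.21% of all genes. These were FADS2 (0.57), ACSL3 (0.53) and ELOVL6 (0.49). With 11 libraries 7 were higher and 1 lower, beside 17.0% and 15.7% of all genes. The median interaction of the 14 was -0.021 with 12 libraries and 0.268 with 11. ACSL3 lost its call in 2 of the 12 fits with 1 library left out, and the FADS2 gene interval overlaps that of FEN1, so that how reads between them were counted is uncertain.

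Genes of DNA replication fell in parental cells, and no member was called in NR cells with 12 libraries. Of 40 tested, 0 rose and 36 fell in parental cells, and the interaction was higher for 27 and lower for 0, all 27 being lost responses. It was higher for 37 and lower for 1 with 11 libraries, where 3 members rose and 7 fell in NR cells, and higher for 21 to 29 with any other library left out. The medians were -0.03 in NR and -0.70 in parental cells. MCM10 (chr10:13203554-13253104), a replication initiation factor, had 58.2, 58.9 and 58.6 CPM in treated and 60, 62.9 and 62.5 CPM in untreated NR cells. It had 28.8, 27.4 and 27.8 CPM in treated and 62.3, 41.2 and 59.9 CPM in untreated parental cells. The lowest untreated parental value belonged to parental control replicate 2, and it was still above all treated parental values. The interaction was 0.95 (SE 0.14, adjusted p = 0.0025). POLE2, a subunit of DNA polymerase epsilon, had an interaction of 0.96 and RFC3, a subunit of the clamp loader, 0.92.

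Mitotic genes moved the same way. None of 34 was called in NR cells, 31 fell in parental cells, and the interaction was higher for 23 with 12 libraries and for 34 with 11, where 2 members rose and 2 fell in NR cells. Any other library left out gave 19 to 26. CDK1 (chr10:62538089-62554610), the kinase that drives entry into mitosis, had 120, 126 and 121 CPM in treated and 116, 113 and 123 CPM in untreated NR cells, against 68.3, 68.3 and 71.5 CPM in treated and 112, 130 and 112 CPM in untreated parental cells. Treated NR cells lay within the range of the untreated cells of both lines. Its interaction was 0.91 (SE 0.14, adjusted p = 0.0027). MAD2L1, a spindle checkpoint protein, had 0.97 (SE 0.09, adjusted p = 0.00019), and BIRC5, a subunit of the chromosomal passenger complex, had 0.99 (SE 0.17, adjusted p = 0.0057). CCNB1, cyclin B1, changed by 0.00 in NR cells and fell by 0.91 in parental cells.

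Both cell cycle lists were searched for a promoter motif, since the members fell together in parental cells. An E2F site was searched as TTTNNCGC on both strands, a loose pattern that allowed any base at each N. A match to it occurred in 16 of 34 matched replication promoters (47.1%), against 8.70% of promoters of all tested genes. The cell cycle homology region, the core of sites bound by the DREAM and MYBL2 complexes, was searched as TTTGAA on both strands and occurred in 13 of 28 mitotic promoters (46.4%), against 8.28% of promoters of all tested genes and 13.6% of all promoters. Over the 4 lists, 2 of 107 promoters matched more than 1 motif, and 0 of these matches overlapped. These windows show the match in capitals for POLE2 (chr14:49688258-49688325, minus strand), RFC3 (chr13:33818064-33818131, plus strand) and GINS2 (chr16:85688955-85689015, minus strand), and for CDK1 (chr10:60778140-60778205), KIF11 (chr10:92593072-92593129) and KIF23 (chr15:69414264-69414329), these last on the plus strand, all in GRCh38.p14.
POLE2: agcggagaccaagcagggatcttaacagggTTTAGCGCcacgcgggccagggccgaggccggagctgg
RFC3: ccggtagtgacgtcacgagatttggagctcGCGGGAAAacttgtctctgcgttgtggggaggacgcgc
GINS2: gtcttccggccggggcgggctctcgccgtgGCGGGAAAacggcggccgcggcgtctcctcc
CDK1: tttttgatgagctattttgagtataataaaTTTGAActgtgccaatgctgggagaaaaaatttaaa
KIF11: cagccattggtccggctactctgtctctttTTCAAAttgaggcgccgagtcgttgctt
KIF23: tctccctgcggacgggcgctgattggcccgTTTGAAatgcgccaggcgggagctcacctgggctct

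The RFC3, GINS2 and KIF11 matches read on the opposite strand. The kinesins KIF11 and KIF23, motors of the mitotic spindle, had interactions of 0.76 (adjusted p = 0.0053) and 0.74 (adjusted p = 0.0011). GINS2, part of the replicative helicase, had 0.90 (adjusted p = 0.024), but its untreated parental values were 66.8, 96.7 and 66.4 CPM, the highest in parental control replicate 2, and the call was lost in 8 of the 12 fits with 1 library left out.

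Genes of nucleotide supply and protein folding also fell in parental cells. Of 24 nucleotide synthesis genes, none was called in NR cells, 17 fell in parental cells, and 9 had a higher interaction (4 to 8 with any library but parental control replicate 2 left out). With 11 libraries 1 rose and 6 fell in NR cells, 2 rose and 18 fell in parental cells, and the interaction was higher for 15 and lower for 2. SHMT1, which makes one-carbon units, had 0.65 (SE 0.11, adjusted p = 0.0059), and TYMS, thymidylate synthase, had 0.82 (SE 0.14, adjusted p = 0.0049). NME1, a nucleoside diphosphate kinase, was also higher (adjusted p = 0.040) but lost its call in 9 of 12 such fits. Of 17 heat shock genes, none was called in NR cells, 16 fell in parental cells, and 11 had a higher interaction (6 to 13 with any library but parental control replicate 2 left out). With 11 libraries 9 fell and 1 rose in NR cells, 17 fell in parental cells, and the interaction was higher for 16, with 7 members lost and 8 weakened. HSP90AA1, a cytosolic HSP90, had 4780, 4800 and 4860 CPM in treated and 5710, 5530 and 6140 CPM in untreated NR cells, against 2140, 2100 and 2260 CPM in treated and 4350, 4770 and 4590 CPM in untreated parental cells. Groups did not overlap in either line, yet the NR change of -0.28 missed the threshold (adjusted p = 0.14), and the interaction was 0.89 (SE 0.12, adjusted p = 0.0017). HSP90 genes have near-identical copies, and how shared reads were counted is not given in the sources used here.

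Inflammatory genes under NF-kB rose in parental cells, while few were called higher in NR cells. Of 23 tested, 0 rose and 2 fell in NR cells, against 15 and 1 in parental cells, and with 11 libraries 2 rose and 10 fell in NR cells, against 17 and 1 in parental cells. With 12 libraries the interaction was lower for 13 and higher for 0. It was lower for 18 with 11 libraries and for 11 to 13 with any other library left out. The medians were -0.29 in NR and 0.50 in parental cells. CXCL2, a neutrophil-attracting chemokine, had 5.34, 6.77 and 6.15 CPM in treated and 8.72, 9.06 and 7.67 CPM in untreated NR cells, against 6.41, 7.12 and 5.92 CPM in treated and 2.78, 3.54 and 2.74 CPM in untreated parental cells. Treated NR libraries were all below untreated ones, and treated parental libraries were all above. The NR change of -0.49 missed the threshold (adjusted p = 0.13) and the interaction was -1.49 (SE 0.21, adjusted p = 0.0020), so CXCL2 counted as lost with 12 libraries and as reversed with 11.

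IL6 had an NR change of -0.47 (adjusted p = 0.18), a parental rise of 0.90 and an interaction of -1.37 (SE 0.22, adjusted p = 0.0036). IL1B, interleukin 1 beta, had 10.8, 12.2 and 10.9 CPM in treated and 19.5, 21.9 and 21.6 CPM in untreated NR cells, against 4.83, 4.27 and 4.04 CPM in treated and 2.91, 3.74 and 3.62 CPM in untreated parental cells. It fell in NR cells by 0.91 (adjusted p = 0.0047), and the parental change of 0.25 missed the threshold, which placed it among the gained responses. With 11 libraries 6 of the 23 members were reversed, CXCL2, IL6, IL1A, ICAM1 and IL1B among them. Untreated NR cells already differed, since 12 of the 23 members were higher and 1 lower than in untreated parental cells, where 9.84% of all genes were called, and 14 were higher and 2 lower with 11 libraries (22.8% of all genes). Of 32 interferon-stimulated genes, 0 were called in NR cells, 11 rose and 1 fell in parental cells, and 0 had an interaction called. With 11 libraries 11 rose and 1 fell in NR cells, and 17 rose and 1 fell in parental cells. The interaction was then higher for 1 of the 32 and lower for 10, near the 32.8% of all genes called in that fit.

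**Figure D4:**
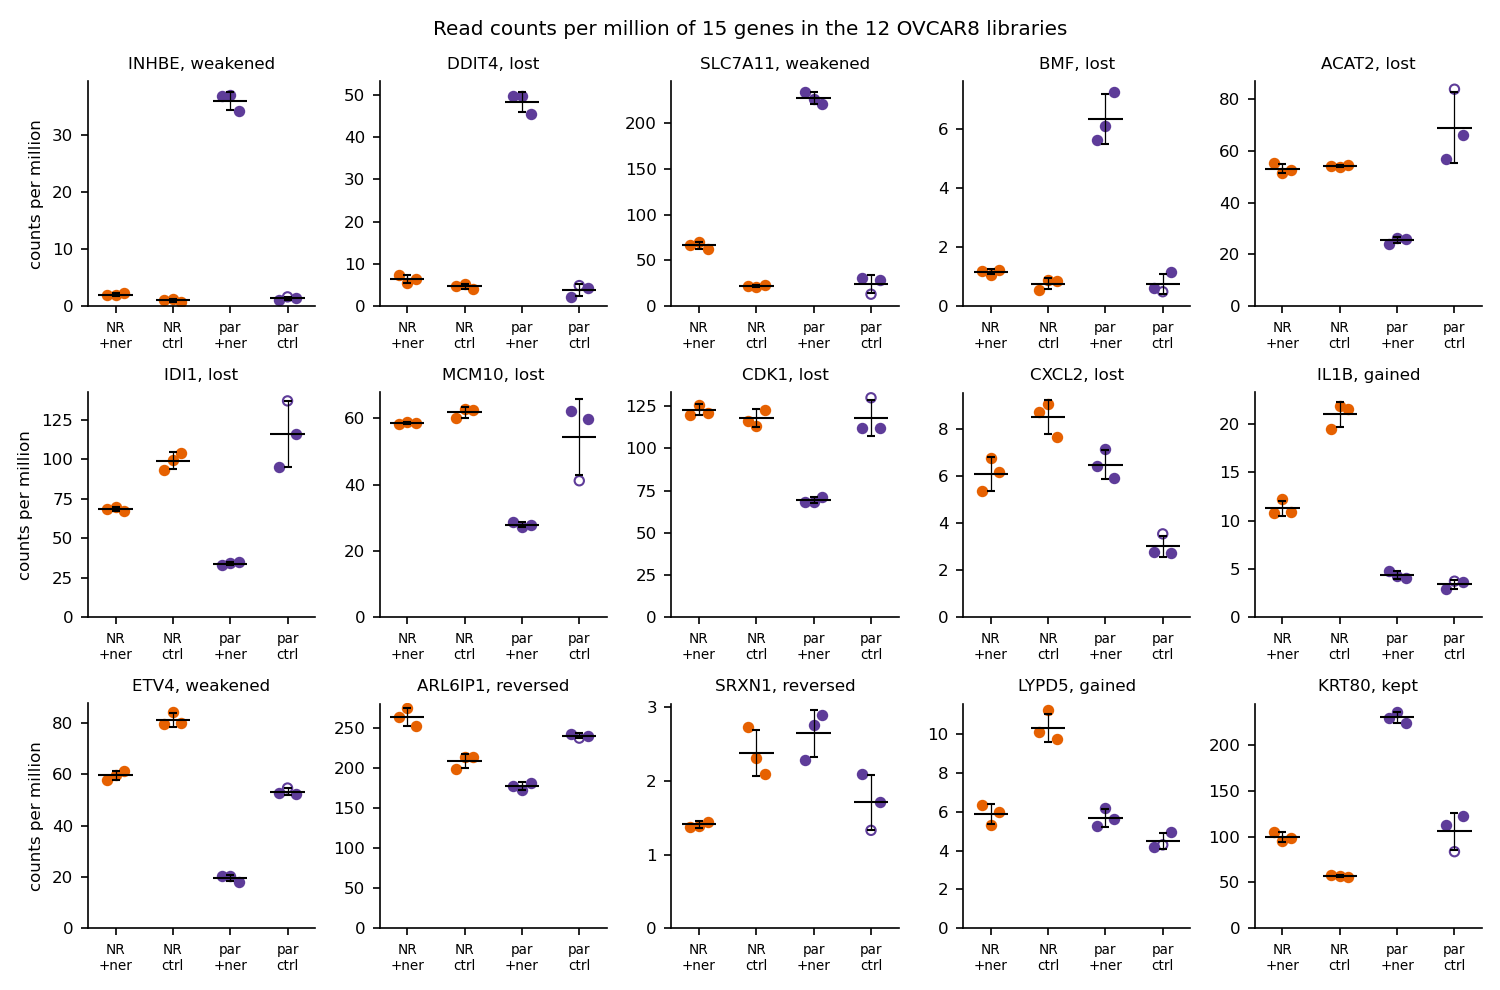
Level in CPM (vertical axes, each from 0) of 15 genes in the 12 OVCAR8 libraries, with the class of each gene in the 12-library fit above its panel. Points are libraries, bars are the mean ± SD of 3 libraries, and the open point is parental control replicate 2. From left to right the groups are NR with neratinib, NR control, parental with neratinib and parental control. For INHBE, DDIT4 and BMF the treated parental libraries lie above all others.

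EGFR and ERBB2, receptors that neratinib binds, had no called interaction. EGFR had 355, 376 and 371 CPM in treated and 327, 336 and 331 CPM in untreated NR cells, against 342, 331 and 354 CPM in treated and 324, 119 and 302 CPM in untreated parental cells. The value of 119 belongs to parental control replicate 2. Its interaction was -0.26 (SE 0.33, adjusted p = 0.70) with that library and 0.04 (adjusted p = 0.58) without it. ERBB2 had 123, 118 and 126 CPM in treated and 118, 115 and 113 CPM in untreated NR cells, against 145, 150 and 152 CPM in treated and 135, 125 and 138 CPM in untreated parental cells, an interaction of 0.00 (SE 0.09, adjusted p = 0.99).

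ERBB3, a receptor with an impaired kinase that pairs with ERBB2 and is induced when AKT is inhibited, had 104, 114 and 105 CPM in treated and 100, 104 and 95.8 CPM in untreated NR cells, against 216, 210 and 211 CPM in treated and 145, 119 and 161 CPM in untreated parental cells. The parental rise was 0.49, the NR change was 0.09, and the interaction was -0.41 (SE 0.11, adjusted p = 0.045). That call was lost in 10 of the 12 fits with 1 library left out, but it held without parental control replicate 2, at -0.34 (adjusted p = 0.00045). Among 25 receptor tyrosine kinases, 4 had a lower interaction and 0 a higher one, beside 4.21% and 4.62% of all genes. With 11 libraries 7 of 26 were lower and 3 higher, beside 15.7% and 17.0% of all genes. The 4 were ERBB3, the insulin receptor INSR (-0.73, adjusted p = 0.0080), PDGFRB (-0.83, adjusted p = 0.011) and DDR2 (-1.01, adjusted p = 0.014), all with a lost rise. Of 7 ERBB ligands tested, HBEGF (0.75, SE 0.14) and NRG1 (0.52, SE 0.09) had a higher interaction, both being lost falls, beside 4.62% of all genes. With 11 libraries 2 of the 7 were also higher, beside 17.0% of all genes. Of 21 negative regulators of ERBB signalling, 1 had a lower interaction and 0 a higher one, beside 4.21% and 4.62% of all genes. With 11 libraries 2 were lower and 6 higher, beside 15.7% and 17.0% of all genes. The 1 called with 12 libraries was RNF41, the ligase that degrades ERBB3, which rose by 0.82 in parental cells, with an interaction of -0.68 (SE 0.11, adjusted p = 0.0045).

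Genes that report ERK activity had called falls in both lines. Of 31 tested, 0 rose and 6 fell in NR cells, against 0 and 14 in parental cells. With 11 libraries 1 rose and 18 fell in NR cells, against 3 and 17 in parental cells. With 12 libraries the interaction was higher for 7 and lower for 1, beside 4.62% and 4.21% of all genes. With 11 libraries it was higher for 14 and lower for 7, beside 17.0% and 15.7% of all genes. With any other library left out it was higher for 5 to 7. The medians were -0.25 in NR and -0.30 in parental cells. ETV4, an ETS factor induced by ERK, had 57.8, 59.7 and 61.3 CPM in treated and 79.4, 84.2 and 79.9 CPM in untreated NR cells, against 20.2, 20.2 and 18.1 CPM in treated and 52.8, 54.6 and 52.1 CPM in untreated parental cells. It fell in both lines without overlap, and treated NR cells remained above untreated parental cells. The interaction was 1.09 (SE 0.11, adjusted p = 0.00029). DUSP5, a nuclear ERK phosphatase, fell by 0.50 in NR and by 1.26 in parental cells (interaction 0.76, SE 0.13, adjusted p = 0.0043). PLAUR, the urokinase receptor, fell by 0.67 in NR and by 1.45 in parental cells, and its interaction of 0.78 (adjusted p = 0.016) lost its call when replicate 1 of treated parental cells was left out.

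CCND1, cyclin D1, and the transcription factors FOSL1 and ETV5 were lost, with interactions of 0.62, 0.53 and 0.47. DUSP1 was the member with a lower interaction, at -0.48 (SE 0.10, adjusted p = 0.012), and it fell in NR cells (118, 122 and 129 CPM treated, 157, 158 and 155 CPM untreated) while parental cells had 162, 170 and 154 CPM with neratinib and 143, 141 and 138 CPM without. The starting levels also differed, as 18 of the 31 members were higher and 2 lower in untreated NR than in untreated parental cells. In that comparison 9.84% of all genes were called. With 11 libraries 22 were higher and 2 lower, beside 22.8% of all genes called. Among 22 targets of YAP and TEAD, 3 had a higher interaction and 0 a lower one with 12 libraries, beside 4.62% and 4.21% of all genes. With 11 libraries 8 were higher and 5 lower, beside 17.0% and 15.7% of all genes. The 3 called with 12 libraries were F3 (0.59, SE 0.12), NT5E (0.47) and ANKRD1 (0.36), the last 2 losing their call in 9 of the 12 fits with 1 library left out.

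FOXO targets rose in parental cells, and none was called in NR cells with 12 libraries. Of 25 tested, 15 rose and 0 fell in parental cells, and the interaction was lower for 12, with medians of 0.07 in NR and 0.49 in parental cells. With 11 libraries 4 rose and 3 fell in NR cells, 15 rose and 2 fell in parental cells, and the interaction was lower for 14 and higher for 2. With any other library left out it was lower for 7 to 12. IRS2, an adaptor of the insulin receptor, had 52.3, 50.9 and 57.4 CPM in treated and 69.2, 56.1 and 57 CPM in untreated NR cells, against 88, 81.8 and 80.7 CPM in treated and 55, 34.6 and 45.6 CPM in untreated parental cells. The interaction was -1.0 (SE 0.17, adjusted p = 0.0052). KLHL24, a substrate adaptor of a ubiquitin ligase that also belongs to the ATF4 list, had -1.30 (SE 0.24, adjusted p = 0.0065). The glucocorticoid-induced leucine zipper gene TSC22D3 had -1.02 (adjusted p = 0.029) and lost its call in 9 of the 12 fits with 1 library left out.

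The interaction was called for 4 of 17 BCL2 family genes, regulators of apoptosis, and for 4 of 37 lysosome and autophagy genes, beside 8.83% of all genes. With 11 libraries it was called for 3 higher and 5 lower of the BCL2 family and for 5 higher and 11 lower of the lysosome and autophagy genes, beside 32.8% of all genes. Of 17 BCL2 family genes, 1 rose in NR cells, while 6 rose and 6 fell in parental cells. The interaction was lower for 3, BMF, BCL2L11 and HRK, and higher for BAK1 (0.38, adjusted p = 0.037), whose call was lost in 9 of the 12 fits with 1 library left out. Leaving out any library other than parental control replicate 2 left 2 or 3 lower. BMF, a BH3-only killer protein released from the cytoskeleton, had 1.21, 1.06 and 1.23 CPM in treated and 0.56, 0.881 and 0.872 CPM in untreated NR cells, against 5.62, 6.1 and 7.26 CPM in treated and 0.624, 0.493 and 1.15 CPM in untreated parental cells. Treated parental cells stood apart from the other 3 groups, and the interaction was -2.35 (SE 0.37, adjusted p = 0.0035). BCL2L11, which encodes BIM, had -0.79 (SE 0.16, adjusted p = 0.011). Of the lysosome and autophagy genes, 0 were called in NR cells with 12 libraries, against 11 rises and 6 falls with 11, and the 4 lower interactions of the 12-library fit included 3 lost rises. ULK1, the kinase that starts autophagy, had -0.98 (SE 0.12, adjusted p = 0.00074). The cargo receptors SQSTM1 and NBR1 had -0.75 (adjusted p = 0.0028) and -0.62 (adjusted p = 0.0070).

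Glycolytic and hypoxia-induced genes fell in both lines. Of 30 tested, 1 rose and 12 fell in NR cells, against 2 and 19 in parental cells, and with 11 libraries 1 rose and 23 fell in NR cells, against 2 and 22 in parental cells. The interaction was higher for 4 and lower for 2 with 12 libraries, beside 8.83% of all genes. It was higher for 5 and lower for 6 with 11, near the 32.8% of all genes called in that fit. With 12 libraries 7 members were kept, and 12 with 11, among them PDK1, which diverts pyruvate from mitochondria, at -0.67 in NR and -0.59 in parental cells. The medians were -0.30 in NR and -0.36 in parental cells. ADM, the vasodilator adrenomedullin, had 78.5, 68.8 and 78.9 CPM in treated and 142, 119 and 125 CPM in untreated NR cells, against 14.4, 15.2 and 13 CPM in treated and 66.3, 59.9 and 48 CPM in untreated parental cells. Treated NR cells were thus above untreated parental cells, and the interaction was 1.34 (SE 0.18, adjusted p = 0.0014). VEGFA moved the other way, with a rise of 0.54 in NR and 1.87 in parental cells and an interaction of -1.33 (SE 0.11, adjusted p = 9e-05). LDHA, lactate dehydrogenase A, fell by 0.40 in NR and by 0.95 in parental cells, with an interaction of 0.55 (SE 0.11, adjusted p = 0.011).

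The ribosomal protein and oxidative phosphorylation lists depended on parental control replicate 2. None of 47 cytosolic ribosomal proteins was called in any of the 3 contrasts with 12 libraries, where the median interaction was 0.14. Without that library 7 ribosomal protein genes rose and 5 fell in NR cells, 43 rose and 0 fell in parental cells, the interaction was lower for 34 and higher for 0, and the median was -0.26. RPS2 had 3080, 2860 and 3050 CPM in treated and 3490, 3220 and 3080 CPM in untreated NR cells, against 3960, 3940 and 3790 CPM in treated and 3170, 5650 and 3110 CPM in untreated parental cells. Its interaction was 0.01 (adjusted p = 0.99) with parental control replicate 2 and -0.41 (adjusted p = 1.6e-05) without it, and ribosomal protein genes have processed copies that can share reads. Oxidative phosphorylation genes had 0 interaction calls of 31 with a median of 0.47, against 15 higher and 1 lower with a median of 0.155 without that library, and 3 to 7 higher without parental control 1 or 3. Ribosome biogenesis genes kept their direction, since the interaction was higher for 5 of 35 with 12 libraries and for 20 with 11 (lower for 0 and 1), although 2 to 7 were higher with any other library left out.

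All 14 gained responses of the 12-library fit were falls in NR cells, whereas the 518 of the 11-library fit were 172 rises and 346 falls. LYPD5, a membrane-anchored protein of the Ly6 family, had 6.34, 5.31 and 6 CPM in treated and 10.1, 11.2 and 9.74 CPM in untreated NR cells, against 5.25, 6.17 and 5.62 CPM in treated and 4.2, 4.29 and 4.94 CPM in untreated parental cells. Treated NR cells overlapped treated parental cells, while untreated NR cells lay above all others, and the interaction was -1.08 (SE 0.16, adjusted p = 0.0025). SLC13A3, a dicarboxylate transporter, had an interaction of -0.74 (adjusted p = 0.0086), and CACNA1H, a T-type calcium channel, had -0.69 (adjusted p = 0.012). These 3 interactions, and those of IL1B and DUSP1, were called in all 12 fits with 1 library left out.

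The 2 reversed responses had small changes in each line. ARL6IP1 (chr16:18802991-18813000), a protein that shapes the endoplasmic reticulum, had 263, 275 and 252 CPM in treated and 198, 213 and 213 CPM in untreated NR cells, against 177, 172 and 181 CPM in treated and 242, 237 and 240 CPM in untreated parental cells. It rose by 0.32 in NR cells (adjusted p = 0.041) and fell by 0.54 in parental cells, without overlap in either line, and the interaction was 0.86 (SE 0.10, adjusted p = 0.00052). SRXN1, sulfiredoxin, an NRF2 target that was chosen after its values were seen, had 1.37, 1.39 and 1.45 CPM in treated and 2.73, 2.31 and 2.1 CPM in untreated NR cells, against 2.29, 2.76 and 2.9 CPM in treated and 2.09, 1.33 and 1.71 CPM in untreated parental cells. It fell by 0.78 in NR cells (adjusted p = 0.043) and rose by 0.54 in parental cells (adjusted p = 0.023). Both interactions were called in all 12 fits with 1 library left out, but neither gene was classed as reversed when any of the 9 libraries other than parental controls was left out. Of the other 19 NRF2 targets tested, SLC7A11, TXNRD1 (-0.71, adjusted p = 0.0093), ABCC3 (-1.14, adjusted p = 0.044) and TRIM16L (-0.77, adjusted p = 0.020) also had a lower interaction (10 lower and 3 higher of all 20 with 11 libraries), and TRIM16L, which has near-identical copies, lost its call in 5 of those fits.

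With 11 libraries the rule for naming genes, applied after seeing the data, added reversed genes, KCNG1 among them. KCNG1, a modifier subunit of potassium channels, had 11.8, 10.6 and 13.2 CPM in treated and 16.6, 14 and 12.6 CPM in untreated NR cells, against 23.6, 22.9 and 20.3 CPM in treated and 6.87, 7.42 and 6.9 CPM in untreated parental cells. Its NR libraries overlapped slightly, and its NR change was -0.30 with 12 libraries (adjusted p = 0.31) and -0.31 with 11. NDRG1, a hypoxia-induced gene, was named from the glycolysis and hypoxia list instead. With 12 libraries it had an NR change of -0.33 and a parental rise of 0.82, and its interaction was called (adjusted p = 0.00092). The 364 reversed genes had a median absolute log2 fold change of 0.204 in NR and 0.294 in parental cells.

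Kept responses were called in both lines. KRT80, an epithelial keratin, had 105, 94.9 and 98.5 CPM in treated and 57.7, 57.3 and 56.3 CPM in untreated NR cells, against 229, 236 and 224 CPM in treated and 113, 83.5 and 122 CPM in untreated parental cells. It rose in both lines without overlap, by 0.78 in NR and 1.02 in parental cells, and the interaction was -0.24 (95% interval -0.53 to 0.05). ESM1, an endothelial-type proteoglycan, fell by 1.5 in NR and by 1.73 in parental cells, an interaction of 0.23 (-0.39 to 0.86). CCL20, a chemokine, fell by 0.99 in NR and by 0.91 in parental cells. ANKRD2, an ankyrin repeat protein of muscle, rose by 1.72 in NR and 0.92 in parental cells, and its interaction of 0.80 had an interval of -0.15 to 1.75, too wide to call the responses alike. PSG5 was also kept, but it belongs to a family of near-identical genes. Of the 123 kept genes, 109 had an interaction interval within 1 log2 unit of 0 and 56 within 0.5. With 11 libraries 1243 of 1322 were within 1 and 1060 within 0.5.

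The largest lost responses outside the lists were also examined. IL20RB, a subunit of receptors for the interleukin 20 family, had 1.69, 1.44 and 1.83 CPM in treated and 1.68, 1.68 and 2.13 CPM in untreated NR cells, against 11.8, 11.8 and 12.3 CPM in treated and 1.54, 1.8 and 1.4 CPM in untreated parental cells. Only treated parental cells were high, and the interaction was -3.0 (SE 0.22, adjusted p = 5.7e-05). AP1M2, an adaptor subunit of epithelial vesicle sorting, had an interaction of 1.54 (SE 0.26, adjusted p = 0.0047), and its untreated parental values were 121, 200 and 125 CPM, the highest in parental control replicate 2. It was 1.19 (adjusted p = 6.8e-11) without that library. TCP11L2 had -1.95 (SE 0.22, adjusted p = 0.00052). Among weakened genes, NDUFA4L2, a hypoxia-induced mitochondrial protein, rose by 1.65 in NR and by 3.44 in parental cells, with an interaction of -1.80 (SE 0.37, adjusted p = 0.012). The mitochondrial tRNA genes MT-TS2 and MT-TH were lost falls, with interactions of 1.58 and 1.53, but they are short neighbours of mitochondrial mRNA genes and can share their reads. Of 13 mitochondrial mRNAs, 3 had a higher interaction with 12 libraries and 7 with 11, and MT-CO3, the highest of the 3 in interaction (0.71), lost its call in 4 of the 12 fits with 1 library left out.

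Adhesion, matrix, Notch, p53 and chaperone lists had 2 to 5 interaction calls each. Beside 8.83% of all genes, these were 2 of 20 integrins and laminins, 3 of 18 matrix proteases, 5 of 25 TGF-beta targets, 2 of 21 Notch genes, 2 of 20 p53 targets and 4 of 20 chaperones. With 11 libraries, beside 32.8% of all genes, the higher and lower calls were 4 and 2 for integrins and laminins, 4 and 6 for proteases, 6 and 8 for TGF-beta targets, 1 and 6 for Notch genes, 5 and 6 of 21 p53 targets, and 7 and 5 for chaperones. ITGB4, the integrin of hemidesmosomes, rose by 1.80 in parental cells and had an interaction of -1.32 (SE 0.16, adjusted p = 0.00092). MMP14, a membrane-bound matrix protease, had -0.58 (SE 0.12, adjusted p = 0.013). Among TGF-beta targets, 1 interaction was higher, COL1A1 (0.55, SE 0.10), and 4 were lower, including LTBP3 (-0.64, SE 0.12). In the Notch pathway the lower members were HEY1 (-1.87, SE 0.26, adjusted p = 0.0020) and the ligand JAG1 (-0.93, SE 0.20, adjusted p = 0.016). Of the p53 targets, 1 interaction was higher, AEN (0.71, SE 0.12), and 1 lower, XPC (-0.48). Of the endoplasmic reticulum chaperones, 2 were higher, CALR (0.70, SE 0.12) and PDIA4 (0.42), and 2 lower, XBP1 (-0.66) and HERPUD1 (-0.59). The calls of PDIA4, XBP1, HERPUD1 and XPC were each lost in some fits with 1 library left out.

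The OVCAR8 interaction was also set against that of 5637, whose parental and NR cells had been treated with a lower dose of neratinib. In a fit of all 24 libraries the OVCAR8 interaction minus the 5637 interaction was called for 548 of 20250 genes (2.71%), 258 higher (1.27%) and 290 lower (1.43%) in OVCAR8. The interaction itself was called for 1459 genes in 5637 (7.20%), 712 higher (3.52%) and 747 lower (3.69%). Without parental control replicate 2 of OVCAR8 the difference was called for 1806 of 20813 genes (8.68%), 956 higher (4.59%) and 850 lower (4.08%). Dose, line and the way each NR line was made cannot be told apart in this difference.

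Members of the sterol, ATF4, NF-kB and FOXO lists had a lower interaction in OVCAR8 than in 5637. In the sterol list the difference was lower for 8 of 23 members and higher for 0, with a median of -0.48. The median interaction of the sterol list was 0.74 in OVCAR8 and 1.10 in 5637. In the ATF4 list the difference was lower for 10 of 38 and higher for 1, with a median of -0.53. SLC6A9 had an interaction of -1.88 in OVCAR8 and 0.98 in 5637, a difference of -2.86 (adjusted p = 4.3e-08). In the NF-kB list the difference was lower for 9 of 28 and higher for 1, and in the FOXO list lower for 6 of 26 and higher for 0. Without parental control replicate 2 of OVCAR8 the difference was lower for 12 and higher for 0 in the sterol list, lower for 21 and higher for 1 in the ATF4 list, lower for 12 and higher for 1 in the NF-kB list, and lower for 8 and higher for 1 in the FOXO list.

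For ERK output the difference was higher for 7 of 34 members and lower for 3 (11 and 4 without that library). HBEGF had an interaction of 0.75 in OVCAR8 and -1.5 in 5637, a difference of 2.24 (adjusted p = 4.3e-08), and ETV4 had a difference of 1.66 (adjusted p = 2.4e-05). For DNA replication and for mitosis no member of 40 and 34 was called either way with 24 libraries. Without parental control replicate 2 the difference was higher for 7 and lower for 0 in replication, and higher for 1 and lower for 3 in mitosis. With 24 libraries the median interactions were 0.68 in OVCAR8 and 0.39 in 5637 for replication, and 0.68 and 0.67 in those lines for mitosis. A missed call there does not show that the lines responded alike. NRG1, the ERBB3 ligand, had a difference of -1.51 (adjusted p = 6.4e-06), with 0.52 in OVCAR8 and 2.01 in 5637.

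**Figure D5:**
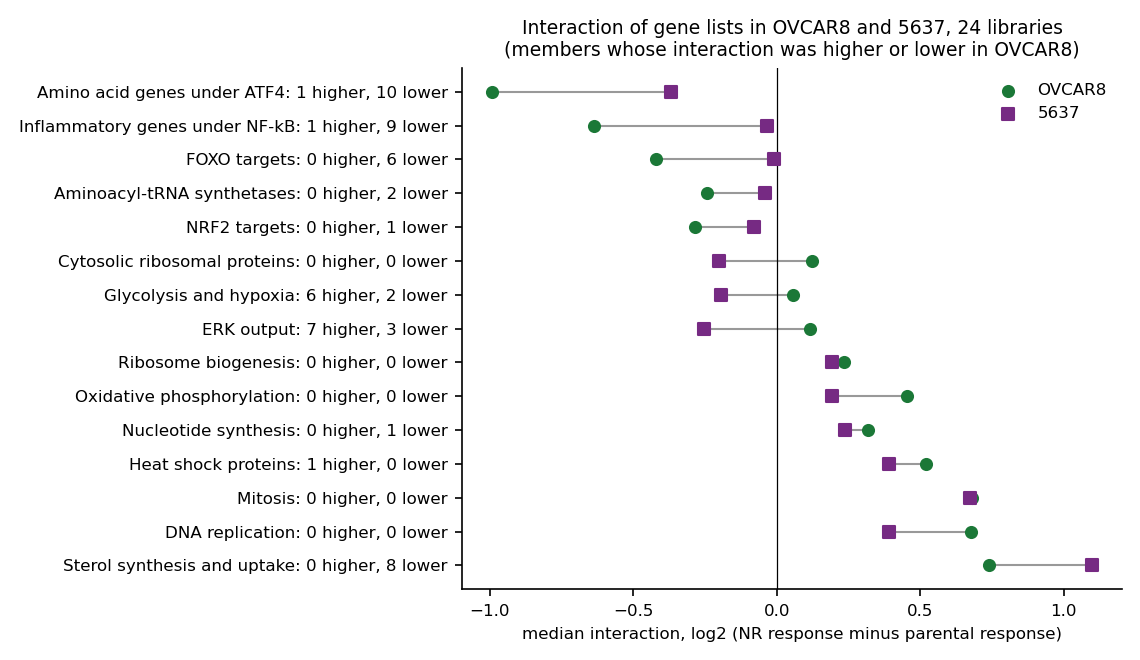
Median interaction (horizontal axis, log2 of the NR response minus the parental response) of 15 gene lists in OVCAR8 (green circles) and 5637 (purple squares), from the fit of 24 libraries. The text beside each list gives the members whose interaction was higher or lower in OVCAR8. The mitosis medians nearly coincide, while the ATF4 and NF-kB lists lie further below 0 in OVCAR8 and the sterol list lies further above 0 in 5637.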

How the data were processed

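Poly(A) RNA was prepared with the ReliaPrep RNA and TruSeq Stranded mRNA kits, and the libraries were read from both ends on a HiSeq3000 instrument (per the labels' protocols). The authors deposited raw counts per gene. The submitters' processing notes name FastQC, STAR 2.5.3a, featureCounts 1.15.2, DESeq2 1.18.1 and the hg19 build; the strand setting, the annotation and the handling of shared reads are not given in the sources used here.

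Samples were matched to columns by title. Of 39786 genes in the deposited table, those passing filterByExpr were tested with edgeR 4.0.16 (R 4.3.3, limma 3.58.1), using TMM scaling and a quasi-likelihood test on a 4-group model of the 12 OVCAR8 libraries. Adjusted p-values are Benjamini-Hochberg over all genes tested, with a threshold of 0.05. CPM values are counts scaled by the library's total. The 24-library fit adds the 5637 groups. Alternatives were 11 libraries without parental control replicate 2, each other library left out, DESeq2 1.42.0, limma voom, other scalings, filters, thresholds, a gene length offset and a replicate block. On simulated data with 17726 genes the interaction test found 7% of 100 genes changed 1.5-fold and 58% of 100 genes changed 2-fold, with 5 false calls. The simulation gave every gene the same spread, changed only well-covered genes in treated NR cells, and held no parental response and no library with a length bias. These figures therefore need not hold for the real libraries.

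The members, lists and classes were chosen with earlier results of these data known. Named genes had at least 5 CPM in at least 1 group: the 3 largest interactions per class and direction with the same class in both fits, the 3 kept rises and 3 kept falls with the largest smaller response, up to 3 called members per list and direction or else the 2 most expressed, the 3 largest differences from 5637 in each direction, and EGFR, ERBB2 and ERBB3. Other list members named, SRXN1 and the genes of the promoter windows were chosen after their values were seen. Lists are given by counts and medians, with no test of the list. A few genes that this rule or the lists hold are not reported here.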

Additional observations from a re-analysis of the deposited data

Results flagged for a closer look

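The OVCAR8 interaction differed from the 5637 interaction, by a test of the difference itself, for 258 genes that were higher and 290 that were lower in OVCAR8. Among the largest differences, SAMD11 had -4.39 on the log2 scale (adjusted p = 0.00018) and WNT10A -3.89 (adjusted p = 0.023). SAMD11 had an OVCAR8 interaction of -1.39 that missed the threshold (adjusted p = 0.061), and WNT10A was under 1 CPM in all 4 OVCAR8 groups.

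The 3 genes with the largest positive differences rested on very few OVCAR8 reads. KRT6A had a difference of 8.09 (adjusted p = 0.011), with 1, 2 and 4 reads in treated NR cells and 0 in each untreated NR library, against 0 in each treated parental library and 1, 3 and 3 in untreated parental cells. KRT19 had 7.77 (adjusted p = 0.032), with 63, 2 and 24 reads in treated NR cells and 1 in each untreated NR library, against 2, 0 and 0 in treated parental cells and 1, 5 and 17 in untreated parental cells. GIPC2 had 6.6 (adjusted p = 0.043), with 3, 2 and 2 reads in treated NR cells and 0 in each untreated NR library, against 0, 1 and 0 in treated parental cells and 2, 3 and 2 in untreated parental cells. At these counts the fitted values depend on the prior count and are no measure of size.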

How the results depend on the processing

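Without parental control replicate 2 the OVCAR8 interaction minus the 5637 interaction was called for 956 higher and 850 lower genes. With each library left out in turn, the interaction was higher for 409 to 3157 and lower for 375 to 2919 genes, the NR response had 21 to 1740 rises and 22 to 2210 falls, and the parental response 2169 to 4506 rises and 2038 to 4611 falls. Lost responses then numbered 726 to 3907, weakened 19 to 1026, reversed 0 to 364, strengthened 0 to 24, gained 3 to 518 and kept 20 to 1322. The upper end was in each case the fit without parental control replicate 2.

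DESeq2 gave 1353 higher interactions, 361 NR rises and 409 NR falls, with 208 weakened, 19 reversed, 53 gained and 358 kept. All 24 libraries in 1 fit gave 1289 higher and 1147 lower interactions, 260 NR rises and 228 NR falls, with 143 weakened, 7 reversed, 1 strengthened, 26 gained and 242 kept. A gene length offset gave 1356 higher interactions, 253 NR rises and 257 NR falls, with 143 weakened, 13 reversed, 2 strengthened, 29 gained and 255 kept. An adjusted p under 0.01 left 476 lost, 27 weakened, 0 reversed, 2 gained and 37 kept, and requiring changes of 0.5 or more on the log2 scale left 52 weakened, 1 reversed, 8 gained and 68 kept. Reversed genes numbered 1 with limma voom, no filter, DESeq2 size factors or robust dispersion, 4 with 1 CPM in 3 libraries and 5 with library size only.

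Replicate numbers did not pair the libraries: of 18 correlations between same-numbered libraries, which ran from -0.118 to 0.113, 1 was over 0.1. A fit with the replicate block gave 572 higher and 534 lower interactions, 46 NR rises and 52 NR falls, with 1040 lost, 43 weakened, 0 reversed, 6 gained and 45 kept.

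Interactions that changed sign were all uncalled with 12 libraries. They were GNB1L (-0.02 with voom, -0.06 with library size only), RPS2 (-0.07 with voom, -0.09 with library size only, -0.01 with no filter, 0.00 with 1 CPM in 3 libraries or 24 libraries, -0.02 with the block, -0.11 with the length offset), HLA-DRB1 (-0.01 with voom, -0.06 with library size only, -0.15 with the length offset), PSG5 (-0.03 with library size only), ERBB2 (-0.08 with library size only, -0.01 with no filter, 1 CPM in 3 libraries or 24 libraries) and MX2 (0.21 with the length offset). With each library left out in turn the ranges were -0.06 to 0.14 for PSG5, -0.2 to 0.05 for CCL20, -0.02 to 0.03 for ERBB2, -0.18 to 0.2 for GNB1L, -4.96 to 0.9 for NUPR1, -0.41 to 0.18 for RPS2, -0.28 to 0.19 for HLA-DRB1, -0.41 to 0.1 for RPL8 and -0.47 to 0.04 for EGFR. Without parental control replicate 2 the edgeR interaction was called after its change of sign for RPS2 (-0.41, adjusted p = 1.6e-05) and HLA-DRB1 (-0.28, adjusted p = 0.023). The cause of the sign changes was not tested. Of the 142 genes followed through these alternative fits, 110 had a called interaction with 12 libraries, beside 8.83% of all genes. Most were picked because their interaction was called, so this share describes the choice of genes. Some genes named in the text were not among the 142.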
